A study of Mus musculus with 15 samples.

Results

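The clustered protocadherins are 58 protein-coding genes on mouse chromosome 18, out of the 21755 protein-coding genes on the chromosomes used. They were chosen by name, as the GENCODE genes whose symbols begin with Pcdha (14 genes), Pcdhb (22) or Pcdhg (21), together with Gm37388, and this rule uses no measured value. The annotation gives the symbol Pcdha11 to 2 genes, which are told apart here by their identifiers. In the mm10 build the Pcdha genes span chr18:36930184-37187661, the Pcdhb genes chr18:37264938-37524479 and the Pcdhg genes chr18:37661793-37841873, all on the plus strand. Gm37388 is annotated from the Pcdha cluster to the constant exons of the Pcdhg cluster, at chr18:36975941-37833296.

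Clustered protocadherins are cell surface proteins of the cadherin superfamily and are best known from the nervous system, where single neurons use different combinations of them in recognizing their own processes. In the Pcdha and Pcdhg clusters each variable exon carries its own promoter and is spliced to constant exons shared by the whole cluster, whereas each Pcdhb gene is a complete coding unit. Choice among these promoters involves CTCF, cohesin and DNA methylation, and H3K4me3, trimethylation of histone H3 on lysine 4, is a mark of active promoters. The C-type genes Pcdhac1, Pcdhac2, Pcdhgc3, Pcdhgc4 and Pcdhgc5 lie at the ends of their clusters and are regulated apart from the other variable exons.

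H3K4me3 was mapped by PAT-ChIP-seq, a form of ChIP made for fixed tissue embedded in paraffin, in the livers of 15 female C57BL/6 mice, with 1 library per mouse and 3 mice per diet. The standard diet (SD), the high-fat diet (HF), yellow corn (YD) and purple corn (RD) were given without limit, and caloric restriction (CR) was the remaining group. Purple corn carries anthocyanins and the near-isogenic yellow corn does not, so that RD against YD compares corn with and without these pigments. Feeding began at 3 months of age and lasted 10 months, while the labels give an age of 12 months for every mouse. The livers were whole, so that fewer cells carrying the mark and less of the mark per cell cannot be told apart.

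The deposited files list the peaks of each library, called islands by SICER2, which joins enriched windows of 200 bp into regions and gives each a score. Scores of different libraries are on different scales, and each was turned into a percentile within its own list. A gene was counted as having an island when any of its transcription start sites (TSSs) lay within 1 kb of it. The lists held 7825 to 33752 islands, from an estimated 5589269 to 15449854 reads (median 9547841). The highest estimate, of YD mouse 1, is the least certain, since it rests on 2 islands a single window wide, and the next was 13978169. The lists of SD mouse 1, CR mouse 3, HF mice 1 and 2 and RD mouse 2 stood apart, with over 20000 islands each, and results are also given without these 5. Library names carry PATChIP in 5 libraries and ChIP in 10, and members with an island averaged 13 in the former and 12.6 in the latter. Of 12 hepatocyte marker genes, 6 to 12 had an island in each library, and Ttr and Hnf4a had an island in all 15.

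In most libraries islands lay at few clustered protocadherins, and most of these were in the Pcdhg cluster. Of the 58 genes, 18 (31.0%) had no island in any library, 33 (56.9%) had an island in 1 to 7 libraries and 7 (12.1%) in 8 or more. Among all protein-coding genes the corresponding shares were 40.04%, 19.9% and 40.1%, and 9.46% had an island in all 15 libraries, which no clustered protocadherin had. The clusters differed from each other. Pcdhg had 1 gene of 21 without an island in any library, Pcdha 4 of 14 and Pcdhb 13 of 22. The median number of libraries with an island was 5 for Pcdhg, 2 for Pcdha and 0 for Pcdhb, beside 3 for all protein-coding genes. In the 10 shorter lists alone, 27 of the 58 genes (46.6%) had no island, beside 44.5% of all protein-coding genes. An island in 8 or more of these lists was present at 3 of the 58 genes and at 4858 of all 21755.

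**Figure D1:**
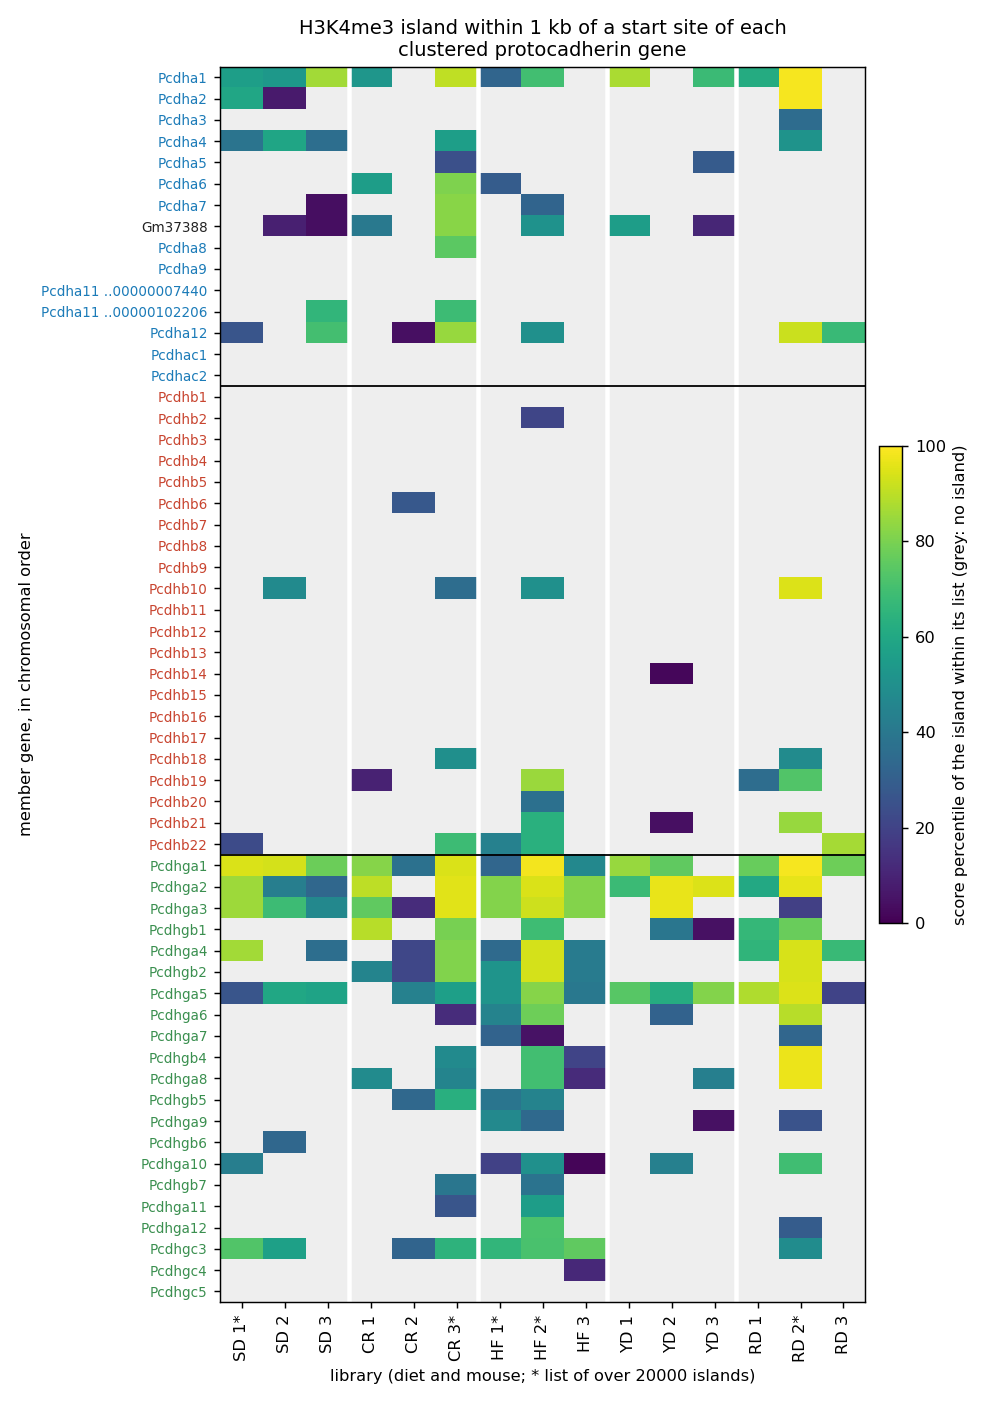
Each row is a member gene in chromosomal order (label colour gives the cluster) and each column a library, and the colour gives the score percentile of the highest-scoring island within 1 kb of a TSS of the gene. Grey marks no island; the filled cells concentrate at Pcdhga1 to Pcdhga5, where Pcdhga1 and Pcdhga5 are filled in 14 of 15 columns, while 13 of 22 Pcdhb rows are empty.

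The genes at the start of the Pcdhg cluster were those most often marked. The width given for a gene is the summed width of the islands within 1 kb of its TSSs in a library. Pcdhga1, the first A-type gene of the cluster, had an island in 14 libraries, with widths of 6000, 5400 and 3200 bp in SD, 3800, 3800 and 10200 bp in CR, 1200, 9600 and 2800 bp in HF, 8600 and 3400 bp in YD mice 1 and 2, and 3400, 10000 and 2400 bp in RD. Only YD mouse 3 had none there, and the widths in each diet overlapped those in every other. Pcdhga2, the next A-type gene, had an island in 13 libraries, of 7600, 1000 and 4400 bp in SD, 3600 and 9400 bp in CR mice 1 and 3, 8400, 6200 and 6400 bp in HF, 4400, 7200 and 3200 bp in YD, and 3400 and 6400 bp in RD mice 1 and 2. The 3 HF values lay between 6200 and 8400 bp, a range that a mouse of SD, YD and RD also reached and CR mouse 3 exceeded. Pcdhga5, a further A-type gene, had an island in 14 libraries, of 1800, 2200 and 2400 bp in SD, 2600 and 3000 bp in CR mice 2 and 3, 4200, 5600 and 3600 bp in HF, 4000, 2800 and 1800 bp in YD, and 3600, 7400 and 800 bp in RD. All 3 HF widths exceeded all 3 SD widths at Pcdhga5, whereas RD spanned both groups. The highest score percentile at the gene in a library had a median over libraries of 79.9 at Pcdhga1, 85.5 at Pcdhga2 and 58.6 at Pcdhga5. Islands at all protein-coding genes had a mean of library medians of 67.9. That value takes every island and not the highest per gene, so it is not a like measure.

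Islands at this end of the cluster could reach more than 1 TSS. Of the 190 islands at TSSs of members, summed over the 15 lists, 172 lay at a single member and 18 at 2, among them 6 at Pcdhga4 and Pcdhgb2 and 5 at Pcdhga2 and Pcdhga3. A further limit is that islands carry no strand: 56 of the 190 also lay within 1 kb of a TSS of a gene outside the group, of which 13 were at Gm37118, next to Pcdhga1, and 8 at BC037039, next to Pcdhgc3. None of the 190 reached a TSS of Taf7 or Slc25a2, the genes between the Pcdhb and Pcdhg clusters. Taf7, a subunit of the general transcription factor TFIID, had its own island in 15 libraries and Slc25a2, a mitochondrial ornithine carrier, in 14.

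The rest of the Pcdhg cluster was marked in fewer libraries. Pcdhgc3 was the only C-type gene with an island in more than 1 library. It had an island in 8 libraries, of 2000 bp in SD mice 1 and 2, 1600 and 2200 bp in CR mice 2 and 3, 1800, 3200 and 4200 bp in HF, and 1800 bp in RD mouse 2. The gene was thus marked in 3 of 3 HF mice and in 0 of 3 YD mice, which were not compared with each other directly. Of all protein-coding genes 51.2% had an island on average in HF and 22.8% in YD. All 8 islands at Pcdhgc3 also lay within 1 kb of a TSS of BC037039. Pcdhgc4 had a single island of 1400 bp in HF mouse 3, at a percentile of 11.4, and Pcdhgc5 had none. Pcdhgb6, a B-type gene, had an island only in SD mouse 2, of 1800 bp at a percentile of 33.5.

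In the Pcdha cluster Pcdha1, the gene at its start, was marked most often. Its islands measured 2600, 2800 and 5200 bp in SD, 2000 and 9200 bp in CR mice 1 and 3, 1000 and 3200 bp in HF mice 1 and 2, 7600 and 1800 bp in YD mice 1 and 3, and 2400 and 11800 bp in RD mice 1 and 2, making 11 libraries. The 11800 bp of RD mouse 2, in islands of which the highest-scoring stood at a percentile of 98.6, was the largest width at any member in the 15 lists. Pcdha12 followed with 7 libraries and Pcdha4 with 5. Pcdha9, the Pcdha11 gene ENSMUSG00000007440 and both C-type genes of the cluster, Pcdhac1 and Pcdhac2, had no island in any library. Gm37388, whose TSS lies between those of Pcdha7 and Pcdha8, had an island in 7 libraries, of 800 and 1800 bp in SD mice 2 and 3, 1800 and 5200 bp in CR mice 1 and 3, 2400 bp in HF mouse 2, and 5200 and 800 bp in YD mice 1 and 3. It had none in RD.

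The Pcdhb cluster had the fewest marked TSSs. Pcdhb22, at the end of the cluster, had an island in 5 libraries, and Pcdhb10 and Pcdhb19 in 4 each. The islands at Pcdhb22 measured 1600 bp in SD mouse 1, 2200 bp in CR mouse 3, 3200 and 4600 bp in HF mice 1 and 2, and 3800 bp in RD mouse 3. Of the 13 genes without an island, Pcdhb1, Pcdhb3 and Pcdhb4 are the first in the cluster. The counts in the cluster rested largely on 3 libraries: HF mouse 2 had islands at 6 Pcdhb genes, RD mouse 2 at 4 and CR mouse 3 at 3, and the other 12 libraries at 0 to 2.

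Counted by library, the number of members with an island varied more within CR, HF and RD than between the diet means. It was 12, 11 and 11 in SD (11.3 ± 0.577, SD of 3 mice), 10, 9 and 26 in CR (15 ± 9.54), 15, 28 and 11 in HF (18 ± 8.89), 5, 9 and 8 in YD (7.33 ± 2.08) and 7, 24 and 5 in RD (12 ± 10.4). HF mouse 2, CR mouse 3 and RD mouse 2 were far above their groups, and all of these have lists of over 20000 islands. All 3 YD values lay below all 3 SD values. Without the long lists the mean was 11 in SD, 9.5 in CR and 6 in RD, and the single HF library left had 11. By the form of the library name, the CR mean was 26 in the single ChIP library and 9.5 in the PATChIP libraries, the HF mean 15 and 19.5, and the RD mean 14.5 and 7, while SD and YD held ChIP libraries only. Across all protein-coding genes the share with an island averaged 39.6% in SD, 51.2% in HF and 43.4% in CR, and 22.8% in YD and 31.2% in RD. The share of the members was below that of all protein-coding genes in 13 libraries, and above it in HF mouse 2 (48.3% beside 47.6%) and RD mouse 2 (41.4% beside 34.7%).

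**Figure D2:**
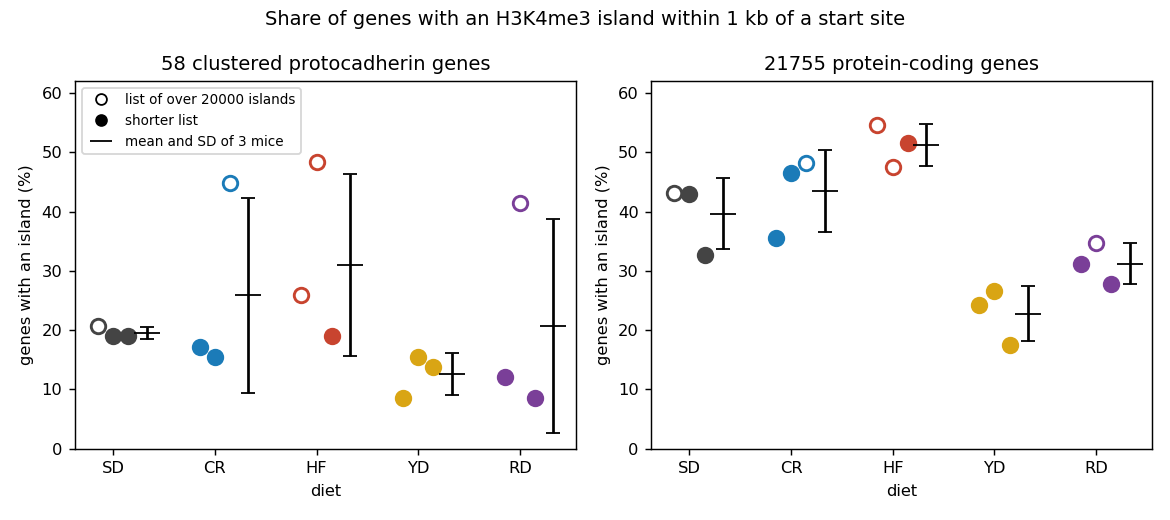
Points give the percentage of genes with an island in each mouse by diet, for the 58 clustered protocadherins on the left and all protein-coding genes on the right, and bars give the mean and SD of 3 mice. Open points are lists of over 20000 islands; among the members the highest points (44.8% in CR, 48.3% in HF and 41.4% in RD) are all open.

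The difference between lists in length was removed by taking the 7825 highest-scoring islands from every list. The members with an island then averaged 8 ± 5.29 in RD, 7.67 ± 7.23 in HF, 7 ± 2 in SD, 6 ± 5.57 in CR and 5.67 ± 1.15 in YD. The share of all protein-coding genes with an island ordered the diets otherwise, at 36.3% in HF, 32.1% in CR, 30.7% in SD, 21.3% in RD and 21.1% in YD. HF mouse 2 with 16, RD mouse 2 with 14 and CR mouse 3 with 11 were still the highest of all, and CR mouse 2 had none. With this choice 32 of the 58 genes had no island in any library, including 18 of 22 Pcdhb genes, while Pcdhga1 and Pcdhga2 had an island in 12 libraries each. Among all protein-coding genes 52.1% then had no island in any library.

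Genes were then counted as gained or lost against SD when an island was present in at least 2 of 3 mice of a diet and absent from all mice of the other. All members behind these counts are named, whether or not the rule for named genes takes them, after their values were seen. In CR 5 members were gained (Pcdha6, Pcdhgb1, Pcdhgb2, Pcdhga8 and Pcdhgb5), where the share of all genes gained was 1.79%, and Pcdha2 was lost, where 0.336% of all genes were lost. In HF 7 members were gained, all of them Pcdhg genes (Pcdhgb2, Pcdhga6, Pcdhga7, Pcdhgb4, Pcdhga8, Pcdhgb5 and Pcdhga9), beside 4.69% of all genes, and Pcdha2 and Pcdha4 were lost, beside 0.0735%. The gains depended on which mice were counted, and the share of all genes gained moved as well. Members gained in CR numbered 1 without CR mouse 3 (beside 0.432% of all genes) and 2 without CR mouse 1 (beside 1.51%). Members gained in HF numbered 1 without HF mouse 2 (beside 4.15%) and 3 without HF mouse 1 (beside 1.91%). The losses also depended on the mice counted. In HF they numbered 4 without HF mouse 2 (beside 0.124% of all genes) and 1 without SD mouse 1 or 2 (beside 0.0276% in each). In CR they numbered 0 without SD mouse 1 or 2 and 2 without CR mouse 3 (beside 0.947%). With equal list lengths 2 members were gained and 3 lost in CR, beside 1.6% and 0.735% of all genes. In HF 0 were then gained and 1 lost, beside 2.2% and 0.336%.

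The corn diets gained few members. In YD 1 member was gained (Pcdhgb1, beside 0.0368% of all genes) and 5 were lost (Pcdha2, Pcdha4, Pcdha12, Pcdhga4 and Pcdhgc3, 8.62% of the members beside 9.46% of all genes). In RD 2 members were gained (Pcdhb19 and Pcdhgb1, beside 0.221%) and Gm37388 was lost (beside 3.92%). Both RD gains depended on RD mice 1 and 2. Without either, 0 were gained. Without RD mouse 2, 5 members were lost, beside 7.2% of all genes. The loss of Gm37388 was not counted without SD mouse 2 or 3, nor the YD gain without YD mouse 2 or 3. The YD losses fell to 1 without SD mouse 1 (beside 4.08% of all genes) and to 3 without SD mouse 2 or 3 (beside 4.39% and 7.98%). For the anthocyanin comparison, RD against YD, 3 members were gained (Pcdha12, Pcdhb19 and Pcdhga4), beside 3.81% of all genes. Without RD mouse 2, 1 was gained (beside 1.79%), and without RD mouse 1 or 3, 2 were (beside 1.94% and 2.27%). Gm37388 was lost, beside 0.244% of all genes, and 0 members were lost without YD mouse 1 or 3. Losses of YD against SD were close to the share of all genes lost, and a count of so few genes of each group carries no test here. CR, HF, YD and RD share the same 3 SD mice as reference.

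In these 5 comparisons 3 genes had an island in every mouse of one diet and in no mouse of the other. Each gain or loss by this rule was 1 of the 58 members (1.72%). Of all genes 0.313% were gained in CR and 1.82% in HF against SD, and 1.09% in RD against YD. Losses against SD were 0.00919% of all genes in HF and 3.5% in YD. Pcdhgb2, a B-type gene of the Pcdhg cluster, had islands of 2800, 1400 and 5000 bp in CR, 6200, 7600 and 4800 bp in HF and 5600 bp in RD mouse 2, and none in SD or YD. Apart from the 2800 bp in CR mouse 1 and 1400 bp in HF mouse 3, these islands also lay within 1 kb of a TSS of Pcdhga4 or Pcdhga5. With equal list lengths Pcdhgb2 had an island in 3 libraries in place of 7, and no member was then gained in HF. Pcdha4 had islands of 2000, 2200 and 3000 bp in SD, 1600 bp in CR mouse 3 and 2000 bp in RD mouse 2, and none in HF or YD. Pcdhga4 had islands of 3400 and 2200 bp in SD mice 1 and 3, 1400 and 5000 bp in CR mice 2 and 3, 3200, 7600 and 3400 bp in HF and 2600, 5600 and 2200 bp in RD, and none in YD. With 3 mice on each side the smallest two-sided exact p is 0.1, so each diet was also tested against the other 12 libraries.

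In these tests, made across all 21755 genes, no clustered protocadherin was called. Island presence was compared by a two-sided Fisher's exact test and island width, with 0 for no island, by a two-sided exact permutation test over 455 assignments, with Benjamini-Hochberg adjustment over all genes. The smallest p such a test can give is 0.0022, which passes the adjustment only where at least 957 genes share it. For each of the 5 diets 0 members and 0 genes (0%) passed an adjusted p of 0.05 in either direction. The members with an unadjusted p under 0.05 numbered 1 each in SD, HF and YD and 0 in CR and RD for presence. For width they numbered 3 in HF, 1 each in SD and CR, and 0 in YD and RD. Each count of 1 was 1.72% of the members. Of all genes 0.0368% were marked in more SD libraries and 5.36% in more HF libraries at that level. Wider islands were found at 0.382% of all genes in SD and 2.21% in CR. Where no member was found, narrower islands in YD were found at 10.1% of all genes and in RD at 1.44%. For presence these shares were 0.423% higher in CR and 1.08% lower in RD. In the same tests 20.4% of all genes had wider islands in HF at that level, beside 5.17% of the members, and 7.27% of all genes were marked in fewer YD libraries, beside 1.72% of the members.

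The values behind these unadjusted results were as follows. Pcdha4 was wider in SD (2400 ± 529 bp, n = 3) than in the other libraries (300.0 ± 706 bp, n = 12), with an exact permutation p of 0.0044 and an adjusted p of 1. Pcdhgb2 was wider in HF (6200 ± 1400 bp) than in the other libraries (1233 ± 2087 bp), with an exact permutation p of 0.00659 and an adjusted p of 0.128. Most of this HF width lay in islands shared with Pcdhga4 or Pcdhga5, and only 1400 bp, in HF mouse 3, lay in an island at Pcdhgb2 alone. Pcdhgc3 was wider in HF (3067 ± 1206 bp) than elsewhere (800 ± 998 bp), with an exact permutation p of 0.011 and an adjusted p of 0.143. Pcdhga4 was marked in 0 of 3 YD libraries and 10 of the other 12, with an exact p of 0.022 and an adjusted p of 0.558. Pcdhga10 in HF (3 of 3 beside 3 of 12, exact p of 0.044) and Pcdha6 in CR (2133 ± 2013 bp beside 100 ± 346 bp, exact permutation p of 0.0286), named after their values were seen, had adjusted p-values of 0.819 and 1.

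Member islands were mostly wider than islands at all protein-coding genes and mostly ranked lower. Their median was narrower in CR mouse 2 and HF mouse 1 (1800 bp in each, beside 2000 and 2400 bp), and it ranked higher in YD mouse 1 (71.0 beside 59.1) and RD mice 2 (75.0 beside 72.9) and 3 (67.9 beside 66.9). The median width of member islands averaged 2513 ± 812 bp over the 15 libraries, beside 1840 ± 372 bp for islands at all protein-coding genes, and their median score percentile 51.9 ± 15.2 beside 67.9 ± 6.34. By diet the percentile was highest in RD (68.7 ± 5.90), followed by SD (52.5 ± 5.63), YD (49.5 ± 18.9), CR (48.2 ± 18.4) and HF (40.8 ± 14.7). The 3 RD mice had 63.3, 75.0 and 67.9, above each SD mouse (57.7, 53.2 and 46.5), although RD had few members marked outside mouse 2. Wide islands of at least 5000 bp numbered 31 of 190, of which 21 came from HF mouse 2, CR mouse 3 and RD mouse 2.

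Island coverage did not fall off by 5 kb from member TSSs as it did at all protein-coding genes. At all protein-coding genes 26.0% of gene and library pairs were covered by an island at the TSS, and 1.75% and 1.69% at 5 kb upstream and downstream. At Pcdhg genes coverage was 24.8% at the TSS, 26.3% at 5 kb upstream and 19.7% at 5 kb downstream. Pcdha genes had 9.05%, 10.95% and 11.4% at the same places. Pcdhb genes had 3.33% at the TSS and their highest value, 17.0%, at 8 kb downstream. The TSSs of a cluster lie close together, and the flanks of a gene hold TSSs of its neighbours. The profile therefore cannot tell islands spread over a cluster from islands at neighbouring TSSs. Of the islands over each cluster, 68% lay within 1 kb of a member TSS in Pcdhg (119 of 175), 47.7% in Pcdha (42 of 88) and 16.2% in Pcdhb (23 of 142).

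**Figure D3:**
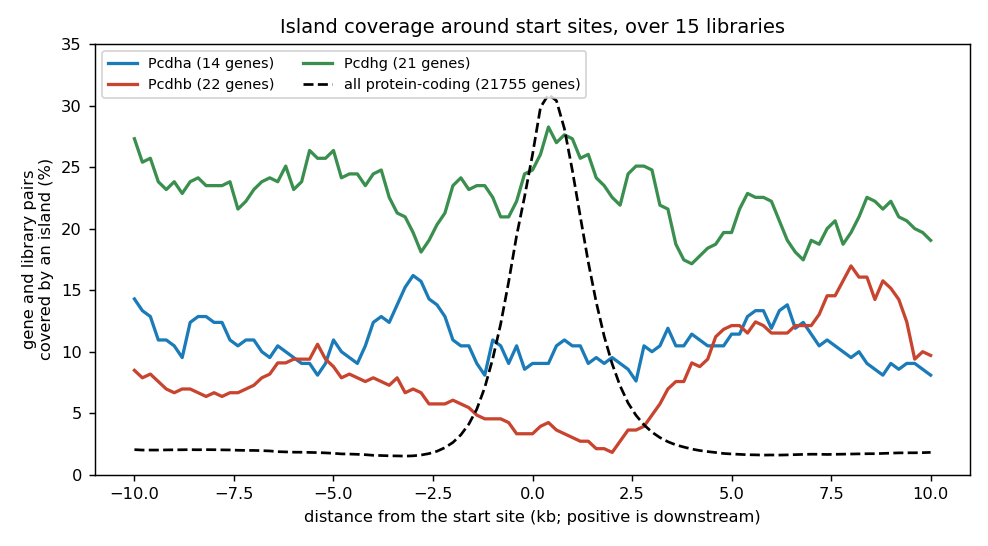
The lines give the percentage of gene and library pairs covered by an island (vertical axis) by distance from the TSS in kb, for each cluster and for all protein-coding genes, over 15 libraries. All protein-coding genes peak near the TSS (26.0% at 0 kb, under 2% at 5 kb on either side), whereas Pcdhg stays between 19.7% and 26.3% at these 3 places and Pcdhb is lowest near the TSS.

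Islands covered more of the clusters than of the genome as a whole. Over the 15 libraries they covered 9.28 ± 6.31% of the bases of the clusters, beside 1.42 ± 0.847% of the genome. By cluster the mean was 5.27% in Pcdha, 8.38% in Pcdhb and 16.3% in Pcdhg. The diets overlapped: the clusters were 9.44%, 7.04% and 6.75% covered in SD, 6.70%, 4.05% and 20.2% in CR, 10.5%, 19.6% and 5.25% in HF, 6.21%, 6.06% and 4.29% in YD and 6.79%, 22.8% and 3.50% in RD. Without RD mouse 2 the RD mean fell from 11.04% to 5.14%, without CR mouse 3 the CR mean from 10.3% to 5.37%, and without HF mouse 2 the HF mean from 11.8% to 7.87%. In Pcdhg alone coverage was higher in every HF mouse (27.8 ± 10.1%, from 19.5% to 39.1%) than in every SD mouse (12.0 ± 5.08%, from 7.78% to 17.7%). RD mouse 2 (33.4%) and CR mouse 3 (26.5%) lay within the HF range there, and the other CR and RD mice lay below it. HF mouse 3 had no island over the Pcdha cluster, although 51.5% of all protein-coding genes had an island in that library.

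Within the clusters the coverage was uneven. From the TSS of Pcdhga1 to that of Pcdhga6 the median was 41.6%, from 17.2% in RD mouse 3 to 84.5% in HF mouse 2. From Pcdhga6 to Pcdhgc3 it was 4.03%, with 19.7%, 29.7% and 8.02% in the HF mice, 5.64%, 2.98% and 4.03% in SD and 0%, 4.39% and 2.82% in YD. Every HF value was above every SD and YD value there. RD mouse 2 (26.3%) and CR mouse 3 (13.9%) were also above HF mouse 3, and the other CR and RD mice were below it. From Pcdhac1 to the end of the Pcdha constant exons 10 of 15 libraries had no covered base and the highest had 4.30%. No library had an island over any of the 3 constant exons of Pcdha or the 3 of Pcdhg.

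Of the intervals beside the clusters, those upstream of Pcdha and downstream of Pcdhb had higher medians than the variable exons of Pcdha or the Pcdhb genes. The interval from the end of Zmat2 to Pcdha1 had a median of 31.9% and that from Pcdhb22 to Slc25a2 19.2%, beside 5.77% from Pcdha1 to Pcdhac1 and 5.66% over the Pcdhb genes. The interval from the end of Pcdha to Pcdhb1 had a median of 1.81%, with no covered base in 7 libraries. A region at chr18:36869801-36874200, 55984 bp upstream of the TSS of Pcdha1, held an island in all 15 libraries and overlapped no annotated gene. The region chr18:37528401-37539600, which starts 10042 bp from the nearest TSS of Pcdhb22, also held an island in all 15 libraries. It lies within the annotated span of Gm37388. Reads of 50 bp can be ambiguous in parts of these intervals. Of the 50-base words, 68.3% in the interval from Pcdhb22 to Slc25a2 and 81.7% from Zmat2 to Pcdha1 occur once in the genome. The share was 95.3% from Pcdhga1 to Pcdhga6. In the regions marked in all 15 libraries it was 97.9% at chr18:36869801-36874200 and 96.3% at chr18:37528401-37539600. The genes are near-identical in places, and the share of such unique words within 1 kb of a member TSS ranged from 82.1% at Pcdha7 to 100%. The part of this in the island counts was not tested.

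**Figure D4:**
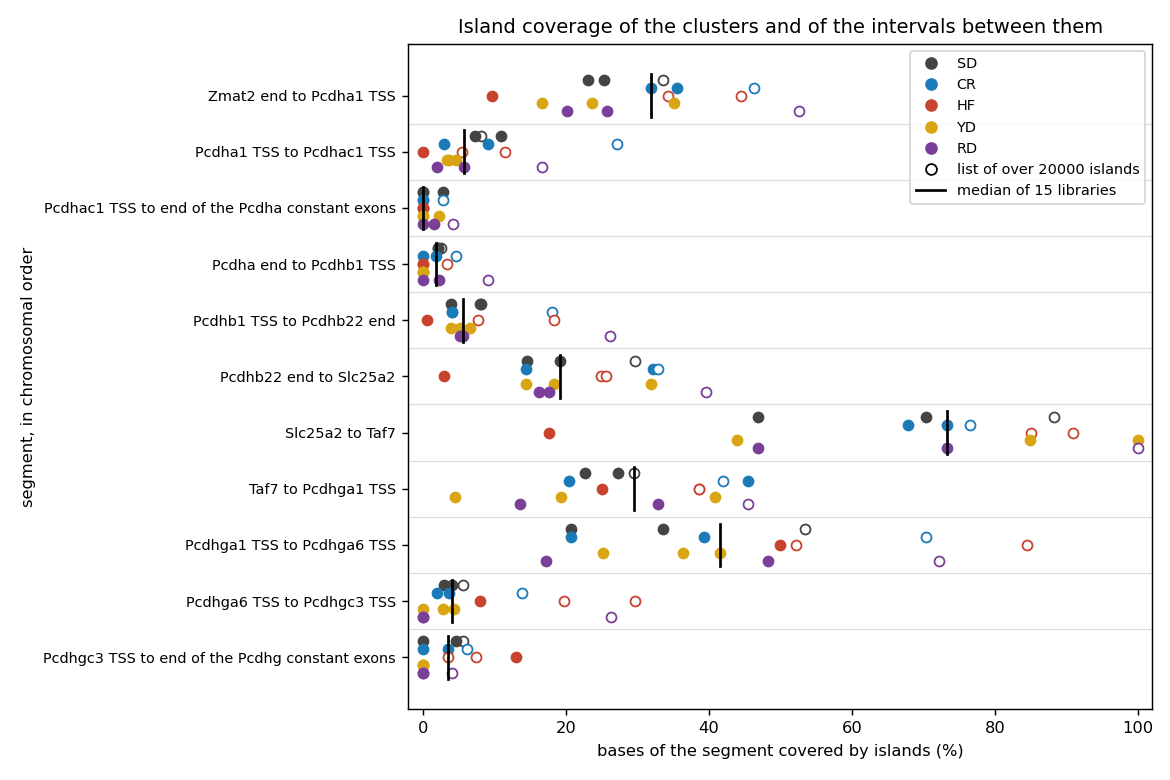
Points give the percentage of bases of each segment covered by islands in each library, coloured by diet, with open points for lists of over 20000 islands and a black bar for the median of 15 libraries. Segments run in chromosomal order; medians are 41.6% from Pcdhga1 to Pcdhga6 and 31.9% upstream of Pcdha1, and 0% from Pcdhac1 to the end of Pcdha.

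The promoters were described by CpG content, the ratio of observed to expected CpG in the 1 kb around the 5-prime-most TSS, read from the mm10 genome. The median ratio was 0.682 in Pcdha, 0.378 in Pcdhb and 0.594 in Pcdhg, beside 0.558 over all protein-coding genes. The 18 members never marked had a median of 0.420, those marked in 1 to 7 libraries 0.592 and those marked in 8 or more 0.594. Over the 58 members, which share their libraries, the number of libraries with an island and the ratio had a Pearson r of 0.293 and a Spearman rho of 0.372. The positive value did not hold within each cluster: r was 0.0864 in Pcdhg (21 genes), -0.0569 in Pcdha (14 genes) and -0.386 in Pcdhb (22 genes). Members were also set beside genes of like CpG content. In the band from 0.6 to 0.8 the median was 3 libraries for 21 members and 10 for 5608 protein-coding genes. In the band from 0.4 to 0.6 it was 3.5 for 22 members and 2 for 3055 genes.

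**Figure D5:**
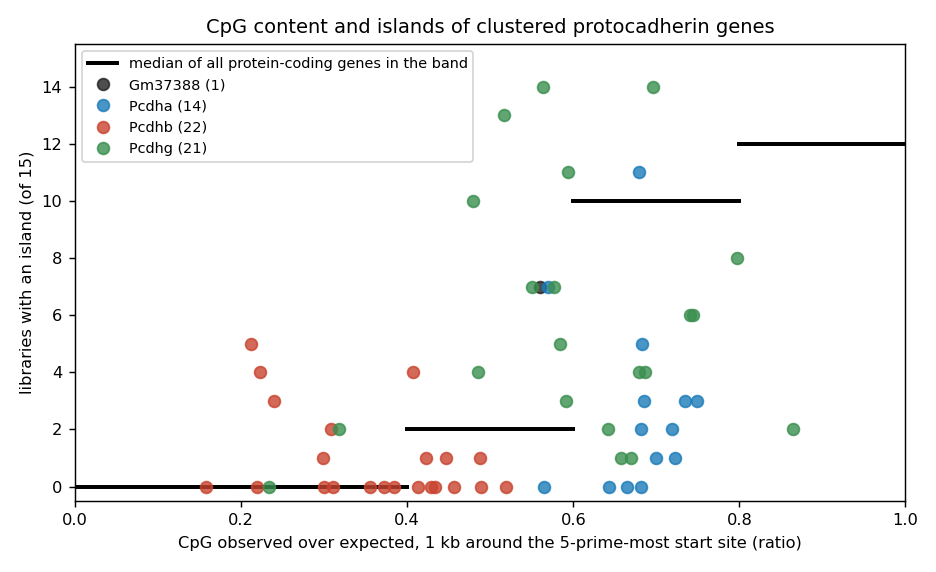
Each point is a member gene, with its CpG observed over expected ratio on the horizontal axis and the number of libraries with an island (of 15) on the vertical axis, coloured by cluster. Black bars give the median of all protein-coding genes in bands of the ratio (10 libraries from 0.6 to 0.8); all Pcdha points but Pcdha1 lie below that bar in that band.

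The core CGCT motif of clustered protocadherin promoters was looked for from 250 bases before to 50 after the 5-prime-most TSS. On the sense strand CGCT occurred in 86.2% of the members and in 51.4% of all protein-coding genes, and on either strand in 96.6% and 67.5%. On the sense strand it was present in all 7 members marked in 8 or more libraries and in 72.2% of the 18 never marked. On either strand it was present in 100% of both of these sets and in 93.9% of the 33 marked in 1 to 7. A match is a description of the letters and not of a bound site.

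Related genes were counted in the same way. Of 12 protocadherins outside the clusters 7 had no island in any library, and Pcdh1 alone had an island in 12 or more, with 15. Of 15 classical and related cadherins 5 had none, while Cdh2 had an island in 15 libraries and Fat4 in 13. Of 17 genes known to act in promoter choice, which include Ctcf (11 libraries), Nipbl (15) and Setdb1 (2), none was without an island and 4 had one in 12 or more. By the rule used for the members, 1 of the 17, Setdb1, was gained in HF against SD (beside 4.69% of all genes), 3 of 17, Smc1a, Dnmt3b and Rest, were lost in YD against SD (beside 9.46%), and 1, Pds5a, was gained in RD against YD (beside 3.81%). Of 10 genes for partners in protocadherin signalling 4 had an island in 12 or more libraries, including Wasf1 and Abi1 in 15, and Ret had none. Of 15 genes that flank or lie between the clusters 10 were marked in 12 or more libraries, including Hars2 and Diaph1 in 15, and Dnd1 in none.

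Markers of other liver cells varied between libraries. Kupffer cell markers with an island numbered 0 to 6 of 10, sinusoidal endothelial markers 0 to 9 of 10 and stellate cell markers 0 to 5 of 10, each highest in HF mouse 1. Lymphocyte markers ranged from 0 to 3 of 10 and cholangiocyte markers from 0 to 3 of 8. No island was found in any library at 4 of the 10 Kupffer cell markers, 1 of the 10 sinusoidal endothelial, 3 of the 10 stellate, 5 of the 8 cholangiocyte and 7 of the 10 lymphocyte markers, among them the defining markers Csf1r, Krt19 and Cd3e. In HF against SD, Clec4f, Lyve1 and Dcn were gained, 1 each of 10 Kupffer, endothelial and stellate markers (beside 4.69% of all genes). In YD 2 of 10 endothelial markers (Stab1 and Clec4g) and 1 of 10 stellate markers (Hand2) were lost (beside 9.46%). Hand2 was also lost in CR (1 of 10, beside 0.336%) and Stab1 in RD (1 of 10, beside 3.92%). Of 10 lymphocyte markers 1, Ptprc, was gained in RD against YD (beside 3.81%). The part of other cell types in the counts of protocadherin genes was not tested.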

How the data were processed

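The authors placed reads of 50 bp on mm10 with bwa. Reads kept with samtools had MAPQ of 1 or more, were not duplicates and lay on the autosomes or X. Islands were called by library with SICER2 (window 200 bp, gap 400 bp, FDR 0.05). Tool versions are not given in the sources used here. The deposited score is a signal value, which adds up the negative natural log of a Poisson probability over the windows of an island, not scaled between libraries, and each list holds 1 library. Columns of other series numbered 0.

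Reads behind a list were estimated from the steps between scores of islands 1 window wide, with an effective genome fraction of 0.74. Genes and TSSs came from GENCODE M21, and sequence from the mm10 genome. An island counted for a gene within 1 kb of any TSS. Calculations used Python 3.11.15, with scipy 1.17.1 for tests, matplotlib 3.10.9 for plots, and pandas 2.3.3 and numpy 2.4.6 for tables.

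The members follow a rule on names alone, but this gene group, the gene lists and the tests were chosen with earlier results of these data known. Named genes were members with an island in at least 12 libraries, the 3 in the most and the 3 in the fewest libraries of each cluster, the C-type genes and Gm37388, and members called in a test or with an island in 3 of 3 mice of one diet and 0 of 3 of the diet compared with it. Diets were compared by presence in at least 2 of 3 mice against none and by tests of each diet against the other 12 libraries. On simulated data for HF against the others, with 21755 genes, 0 of 200 genes set as marked only in HF were called by either test, and 2000 of 2000 were, with 5 and 62 unchanged genes called for presence and width. All 200 of 200 islands placed at known distances were assigned as placed. One marker list is not reported here.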

Additional observations from a re-analysis of the deposited data

How the results depend on the processing

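No member or other gene was called in any of the 230 fits of the tests by presence or width, leave-one-out fits included, and the smallest adjusted p of a member was 0.112. With the replicate block, which exchanged labels within each replicate number alone, 0 members were called for each diet by either test, with a smallest adjusted p of 0.193 for a member. Mice with the same number were separate animals, and over 30 such pairs the deviations from the diet means had a mean r of 0.00172, so the numbers were not used as pairs. Over the other settings 184 of 229 alternative values stayed within the spread between mice, or within 1.5 times for counts, and 45 did not. The 184 include the counts of members called by the tests, which were 0 in every setting and which the tests could hardly change. The spread was also wide in some diets: a fall in CR from 15 to 6 members with equal list lengths lay within its SD of 9.54. The number 184 is therefore no measure of robustness. For members with an island per library, a TSS inside the island gave 7 in SD and 4 in YD, TSSs within 3 kb gave 17 in SD, 27 in HF and 12.3 in YD, equal list lengths gave 7 in SD and 7.67 in HF, islands at or above the median score gave 6 in SD and 4 in YD, and the ChIP library of CR alone, chosen after seeing the data, gave 26. Members gained and lost were added together here, and the shares of all genes gained and lost follow each count. A TSS inside the island gave 3 in CR (2.02% and 0.602%) and 5 in HF (5.41% and 0.124%). Equal list lengths gave 1 in HF (2.2% and 0.336%), 3 in YD (0.257% and 4.39%) and 2 in RD against YD (1.27% and 1.49%). Islands at or above the median score gave 2 in CR (1.96% and 0.248%), 1 in HF (3.31% and 0.0873%) and 1 in YD (0.0322% and 9.69%). With an island required in all 3 mice the counts were 1 in CR (0.313% and 0.0184%), 2 in HF (1.82% and 0.00919%) and 1 in YD (0.0046% and 3.5%). They were 0 in RD (0.0276% and 1.05%) and 1 in RD against YD (1.09% and 0.0276%). Leaving out each mouse in turn gave 3 to 6 in CR, 5 to 10 in HF, 2 to 6 in YD, 1 to 5 in RD and 2 to 4 in RD against YD. The shares of all genes also moved. Gains ranged from 0.432% to 3.78% in CR, 1.91% to 7.73% in HF and 1.79% to 6.97% in RD against YD. Losses ranged from 4.08% to 14.1% in YD and 1.44% to 7.2% in RD. Cluster coverage became 4.25% in SD with equal list lengths and 4.18% in SD and 3.64% in YD with islands at or above the median score. The median width of member islands became 3033 bp in HF with a TSS inside the island. With equal list lengths it was 2867 bp in SD, 4350 bp in CR, 4433 bp in HF and 3867 bp in RD, and with islands at or above the median score 2900 bp, 3300 bp, 4233 bp and 3767 bp. Their median score percentile became 58.8 in SD with a TSS inside the island, 67.4, 79.6, 75.7 and 77.8 in SD, CR, HF and RD with equal list lengths, and 67.4, 76.8, 71.3, 75.9 and 77.2 in SD, CR, HF, YD and RD at or above the median score. Both settings keep only high-scoring islands by construction, and the cause of the other shifts was not tested. The number of islands over each cluster is in another unit than coverage and was given only as a total. TSS distance has no bearing on cluster coverage.

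Limits are those of lists of islands. They hold no read counts per TSS, and a signal under the threshold of a library leaves no island, while list length moves with the counts. The shortest lists can show fewer weakly marked genes. With 3 mice per diet and 21755 genes the tests could not call a change limited to a few genes, since 0 of 200 such genes were called in simulated data.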
